A study of Mus musculus with 18 samples.

Results

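The 43 genes described here are interferon-stimulated genes of the mouse, that is, genes that cells switch on after sensing interferon. They were taken by symbol from a list of such genes, which was drawn up with earlier results of these data known. All 43 were found among the 39179 genes of the files, and all 43 passed the filter on low counts that left 15006 genes for testing. They were measured by RNA sequencing in MC38, a cultured colon adenocarcinoma line derived from C57BL/6 mice. The 18 libraries form 6 groups of 3: an APC-intact line and an isogenic line labelled as deleted for APC, a tumour suppressor of the Wnt pathway, each without doxycycline and after 24 h or 48 h of it at 1 µM. Doxycycline served to switch on a short hairpin RNA against TDO2, the enzyme that starts the breakdown of tryptophan to kynurenine, and the series asks what this knockdown does in either line. Cells of both lines grew in the same medium, with serum tested for such inducible systems. The treated libraries are titled with the hairpin and the untreated ones are not, so whether the untreated cells carried it could not be settled. No group received doxycycline without the hairpin, so the drug and the hairpin cannot be told apart. Whether either line is a single clone is not given in the sources used here. Each group is labelled as biological triplicates, yet no label names separate cultures. The p-values therefore rest on the spread among these libraries alone, which may be technical.

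Type I interferons bind a receptor made of IFNAR1 and IFNAR2, whose kinases JAK1 and TYK2 phosphorylate transcription factors such as STAT2. With IRF9, STAT2 takes part in a complex that binds the interferon-stimulated response element (ISRE) in the promoters of target genes. Interferon gamma acts through another receptor and a different promoter element (GAS). The induced proteins sense foreign RNA and DNA, block viral replication, tag proteins with ISG15, or carry the signal further, and many tumour lines keep a low level of them with no virus present.

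The ISRE is the promoter element named above, so 7 promoters of members that hold its core before the start are shown. These 7 do not stand for all members, since 15 of those matched below had no core. They come from the RefSeq promoter table (build GRCm38.p6, a window that reaches from before to just after each annotated start), which holds 32 of the 43 members. Each is read 5′ to 3′ on the strand of its gene and lies wholly before the start. Capitals mark the core of the element, GAAA and GAAA parted by any 2 bases (or TTTC and TTTC, its other strand), and adjoining matches may overlap.
Isg15 (chr4:156200850-156200924, minus strand): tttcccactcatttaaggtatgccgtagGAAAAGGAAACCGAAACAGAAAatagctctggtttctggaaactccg
Ifit1 (chr19:34640764-34640838, plus strand): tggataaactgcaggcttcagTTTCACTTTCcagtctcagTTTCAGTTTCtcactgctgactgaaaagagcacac
Ifit3 (chr19:34583367-34583441, plus strand): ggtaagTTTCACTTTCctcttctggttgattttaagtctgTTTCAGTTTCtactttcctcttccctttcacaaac
Rsad2 (chr12:26456538-26456612, minus strand): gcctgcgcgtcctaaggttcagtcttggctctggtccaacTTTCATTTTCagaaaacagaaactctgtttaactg
Oas3 (chr5:120777700-120777774, minus strand): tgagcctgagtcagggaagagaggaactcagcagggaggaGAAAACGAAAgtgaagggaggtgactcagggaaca
Bst2 (chr8:71537562-71537636, minus strand): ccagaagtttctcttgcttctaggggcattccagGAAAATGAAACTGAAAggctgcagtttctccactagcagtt
Stat2 (chr10:128270248-128270310, plus strand): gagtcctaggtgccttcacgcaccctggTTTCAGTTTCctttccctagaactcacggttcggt

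The core was present in 17 of the 32 members matched (53.1%), against 3.44% of all 32851 promoters of the table and 3.79% of the 9861 tested genes that it holds. Isg15 has 3 overlapping matches, Bst2 has 2 overlapping ones, and Ifit1 and Ifit3 have 2 separate ones. The GAS letters, TTC and GAA parted by any 3 bases, were present in 7 of the 32 members (21.9%), against 8.3% of all promoters. A match is a run of letters and not a measured binding site.

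Depth was 71970499 to 111948430 gene counts a library. The defining markers of the labelled tissue were nearly absent: Cdx2 had no count in any library, Epcam had 0 or 1, and the 9 colon epithelium markers summed to between 1.8 and 5.42 CPM (a gene's counts scaled to a fixed library total). Markers of blood cells summed to between 0.471 and 1.88 CPM, while 3 fibroblast genes, among them Col1a1, summed to between 1203.6 and 2202.3 CPM. Apc was lower in APC-deleted cells, at 75.2 CPM ± 3.77 (SD, n = 3) against 111.5 ± 14.1 without doxycycline (log2 fold change −0.57 ± 0.123 SE, edgeR adjusted p = 0.00241). Tdo2 had 6 to 29 counts a library and passed the test in no comparison, so its knockdown was not detectable at this depth. The APC-intact 24 h replicate 1 and APC-deleted 48 h replicate 2 libraries stood apart on principal components.

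Before doxycycline the members were well expressed in APC-intact cells, with a median level of 22.7 CPM per kilobase of exon and 36 of 43 at 10 CPM per kilobase or more. The order of levels, corrected for length, was led by Bst2, which tethers budding virus to the membrane, at 431.4 CPM per kilobase ± 8.21 (SD, n = 3). Isg15 followed at 186.9 ± 2.33. Ifit3 at 121.6 ± 12.6 and Lgals3bp at 115.2 ± 2.35 CPM per kilobase were within their spread of each other. The lowest were Mx2 at 3.39 ± 0.221 and Mx1 at 0.371 ± 0.0358 CPM per kilobase. Most inbred mouse strains carry a defective Mx1.

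Most of these genes were lower after doxycycline in both lines, and none was higher. In APC-intact cells 32 of 43 were lower at 24 h and 39 of 43 at 48 h by edgeR's quasi-likelihood test (adjusted p under 0.05 over all genes tested). Among all genes tested, 4.25% were lower and 1.39% higher at 24 h, and 7.54% lower and 3.81% higher at 48 h. In APC-deleted cells 25 were lower at 24 h and 28 at 48 h, where 3.77% and 6.49% of all genes were lower and 2.08% and 4.52% were higher. No member was higher in any of these comparisons by edgeR or by DESeq2. At an unadjusted p under 0.05, 1 member was higher, at 48 h in APC-deleted cells, and none in the others.

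The members' median log2 fold change was −0.41 at 24 h and −0.55 at 48 h with APC intact, and −0.28 and −0.34 in APC-deleted cells, where the median of all genes lay between −0.004 and 0. All libraries of the treated group lay below all untreated ones for 39 members at 24 h and 42 at 48 h with APC intact. For all genes those shares were 14% and 22.7%. No member lay wholly above, where 8.56% and 20.4% of all genes did. In APC-deleted cells the same held for 28 members at 24 h (17.5% of all genes; 0 members and 16.1% of all genes lay wholly above) and 31 at 48 h (15%), and at 48 h Mx2 lay above in all 3 libraries (10.6% of all genes). In bulk RNA, fewer cells that express a gene and less of its RNA per cell cannot be told apart.

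The summed level of the 43 members shows the size of the change. It was 4446.2, 4452.8 and 4298.7 CPM in the untreated APC-intact libraries, 3445.4, 3292.9 and 3483.1 CPM at 24 h, and 3052.4, 2857.6 and 3085.6 CPM at 48 h. The 3 groups did not overlap. In APC-deleted cells it was 4056.0, 4601.6 and 4641.7 CPM without doxycycline, 3640.1, 3507.0 and 3921.2 CPM at 24 h, and 3731.9, 3495.6 and 3561.4 CPM at 48 h. Both treated groups lay below the untreated one and overlapped each other.

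**Figure D1:**
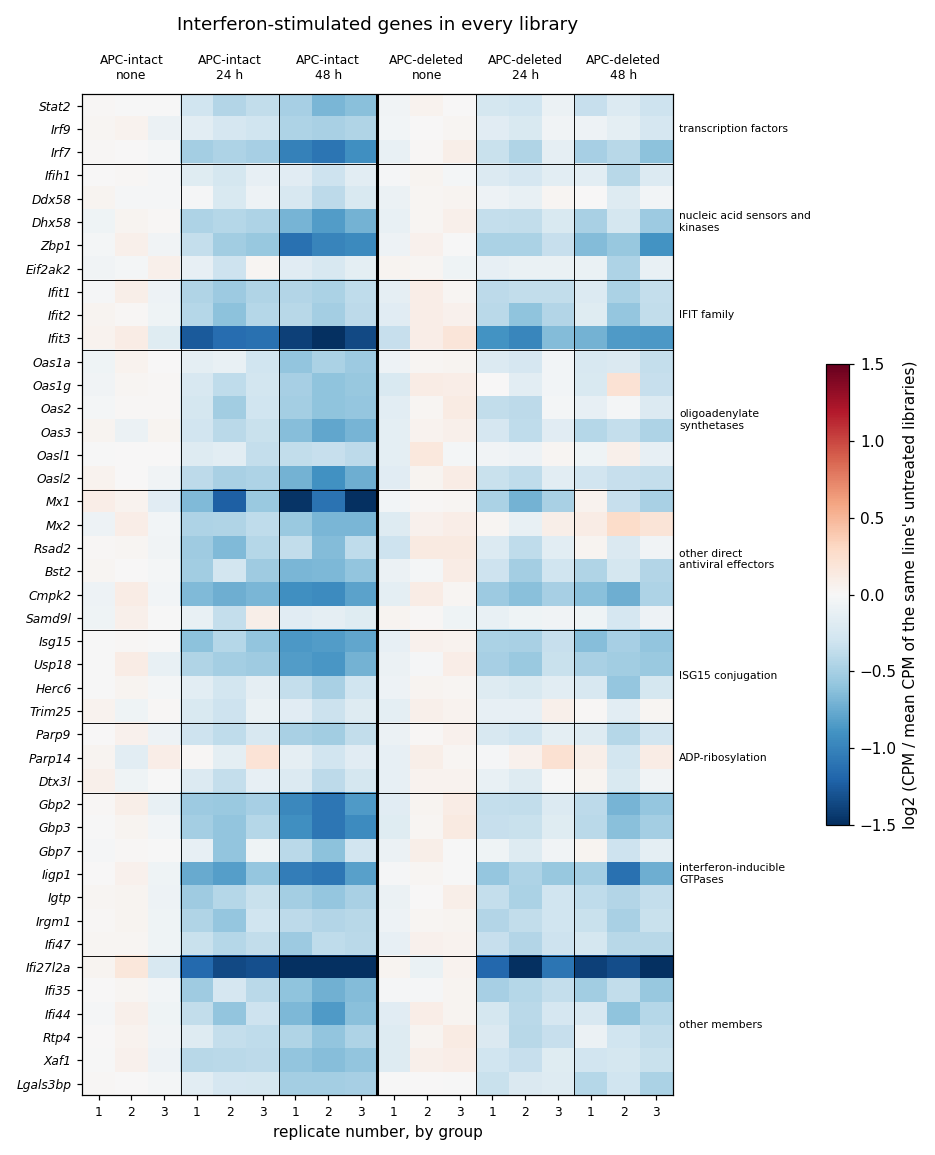
Colour gives the log2 ratio of each member's CPM in a library (columns, by group and replicate) to the mean of the same line's 3 untreated libraries, with members in rows by role; the scale saturates at its ends. The APC-intact 48 h columns are the bluest, Ifit3 and Ifi27l2a stand out in both lines, and Mx2 is pale red in the APC-deleted 48 h libraries.

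The names of the deposited files carry 2 designations, read here as sequencing runs, which is an inference. The untreated groups and the APC-intact 24 h group share the first, and the other 3 treated groups share the second. The 24 h comparison in APC-intact cells thus lies within 1 designation. The 48 h comparison in APC-intact cells and both comparisons with untreated cells in APC-deleted ones set 1 designation against the other. There doxycycline and designation cannot be told apart. Reads that fell in no annotated gene took a larger share beside the members' falls, from a mean of 5.56% to 6.21% and 6.59% in APC-intact cells and from 4.81% to 5.43% and 5.67% in APC-deleted ones. The summed fibroblast genes went from 1482.8 to 1567.5 CPM down to 1203.6 to 1224.9 CPM at 48 h in APC-intact cells, and from 2051.3 to 2202.3 CPM down to 1774.8 to 1805.1 CPM in APC-deleted cells. The part of either in the result was not tested.

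The transcription factors of the response fell as well. Stat2 and Irf9, partners in the complex that binds the ISRE, and Irf7, which amplifies the response, all 3 fell at both times in APC-intact cells. With APC deleted, Stat2 and Irf7 fell at both times, and Irf9 stood at −0.15 ± 0.057 and −0.16 ± 0.057 on the log2 scale. Irf7 had the largest change of the 3. Its untreated APC-intact libraries had 77.9, 77.4 and 75.3 CPM, those at 24 h had 54.2, 55.8 and 54.5 CPM, and those at 48 h had 38.1, 35.9 and 40.6 CPM. No library of 1 of these groups reached into another, and the log2 fold change at 48 h was −1.01 ± 0.073 (a fall of 50.3%, edgeR adjusted p = 2.81e-08).

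In APC-deleted cells Irf7 went from 70.5, 77.2 and 81.5 CPM to 60.7, 56.0 and 69.5 CPM at 24 h and to 53.9, 57.2 and 50.0 CPM at 48 h. The treated libraries were below the untreated ones but overlapped each other, and the change at 48 h was −0.51 ± 0.072 (edgeR adjusted p = 0.000134). For Stat2 the APC-intact libraries had 122.3, 120.5 and 120.5 CPM untreated, 98.8, 89.1 and 94.1 CPM at 24 h, and 85.4, 75.1 and 78.6 CPM at 48 h. Its groups were separate in this line (−0.60 ± 0.062 at 48 h, edgeR adjusted p = 1.65e-06). The APC-deleted libraries began lower, at 88.6, 95.7 and 92.3 CPM, and had 76.8, 75.2 and 86.5 CPM at 24 h and 72.8, 80 and 74.6 CPM at 48 h. Both treated groups lay below the untreated one, with −0.28 ± 0.062 at 48 h (edgeR adjusted p = 0.00547). Irf7 overlaps Phrf1 on the opposite strand by 45 bases, and Irf9 overlaps Rnf31 on the same strand by 123 bases. Against untreated cells Phrf1 stood between −0.08 and 0.05 on the log2 scale. Rnf31 stood at −0.18 and −0.36 at 24 h and 48 h in APC-intact cells and at −0.13 and −0.05 in APC-deleted cells. These overlaps are of gene spans, introns included, and shared exon sequence was not measured. Reads that the counting set aside as ambiguous, 2.02% to 2.21% of all counts in a library, entered no gene. The use of strand in counting is not given in the sources used here. How reads within such overlaps were assigned was not tested.

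Of 5 sensors and kinases of foreign nucleic acid, 2 fell at 24 h and 4 at 48 h with APC intact, and 2 and 3 in APC-deleted cells. Zbp1, a sensor of Z-form nucleic acid that can trigger necroptosis, and Dhx58 (LGP2), a regulator of the RIG-I-like receptors, fell in all 4 comparisons. Zbp1 stood at 39.0, 42.1 and 38.3 CPM in untreated APC-intact libraries, 31.0, 27.8 and 26.9 CPM at 24 h and 18.3, 20 and 20.6 CPM at 48 h. The groups were separate at each step, and the level fell by 50.7% by 48 h (−1.02 ± 0.078, edgeR adjusted p = 5.98e-08). With APC deleted it stood at 32.7, 36.0 and 34.3 CPM, then 24.7, 24.8 and 27.0 CPM, then 21.8, 23.1 and 18.4 CPM. Those groups were separate too (−0.70 ± 0.078 at 48 h, edgeR adjusted p = 9.47e-06).

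Dhx58 levels in APC-intact libraries were 45, 48.3 and 47.3 CPM, then 34.0, 34.8 and 33.9 CPM, then 28.9, 26.2 and 28.7 CPM. The groups did not overlap (−0.75 ± 0.070 at 48 h, edgeR adjusted p = 5.67e-07). In APC-deleted libraries they were 41.9, 46.4 and 47.8 CPM, then 35.5, 35.0 and 38.6 CPM, then 32.3, 37.7 and 31.0 CPM, with both treated groups below the untreated one (−0.43 ± 0.070 at 48 h, edgeR adjusted p = 0.000473). The receptors that bind viral RNA moved less. Ifih1 (MDA5) passed the test at 48 h in each line (−0.21 ± 0.061 and −0.25 ± 0.061), Ddx58 (RIG-I) at 48 h in APC-intact cells (−0.29 ± 0.065). The RNA-activated kinase Eif2ak2 (PKR) passed in none of the 4 comparisons, with estimates from −0.11 to −0.22.

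The IFIT family includes Ifit1, whose product binds viral RNA that lacks the host's cap methylation. All 3 IFIT genes fell in all 4 comparisons. They lie in 1 stretch of chromosome 19, from 34550694 to 34650009 (mm10). Ifit3 changed most. Its APC-intact libraries had 220.8, 228.2 and 187.1 CPM untreated, 88.8, 96.1 and 97.7 CPM at 24 h, and 80.1, 67.8 and 82.9 CPM at 48 h. Already at 24 h it was far below the untreated range (a fall of 55.6%, −1.17 ± 0.122, edgeR adjusted p = 3.37e-05). In APC-deleted cells the untreated libraries ranged more widely, at 182.3, 248.7 and 263.0 CPM, against 124.5, 117.8 and 146.8 CPM at 24 h and 141.2, 128.0 and 127.2 CPM at 48 h. Both treated groups still lay below the untreated one, and they overlapped each other (−0.83 ± 0.121 and −0.81 ± 0.121, edgeR adjusted p = 0.00055 and 0.000466). Ifit3 reads can be shared with its near copy Ifit3b, for which the files gave no single entry.

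Ifit1 and Ifit2 had most of their fall by 24 h. Ifit1 had 77.5, 83.5 and 74.8 CPM in untreated APC-intact libraries, 57.6, 54.0 and 57.7 CPM at 24 h and 57.9, 56.4 and 60.5 CPM at 48 h. The 2 treated groups overlapped, and both lay below the untreated one (−0.48 ± 0.067 and −0.43 ± 0.067). In APC-deleted cells Ifit1 had 63.1, 73.9 and 70.7 CPM, then 52.7, 53.7 and 53.6 CPM, then 60.3, 49.7 and 54.1 CPM, with the same arrangement (−0.38 ± 0.067 and −0.34 ± 0.067). Ifit2 had 115.8, 114.0 and 107.3 CPM in untreated APC-intact libraries, then 83.4, 73.4 and 83.6 CPM, then 84.1, 79.2 and 85.5 CPM. It was higher throughout in APC-deleted cells, at 128.6, 154.6 and 151.3 CPM, then 109.6, 95.2 and 106.4 CPM, then 127.6, 96.8 and 112.5 CPM. Its falls were −0.49 ± 0.088 and −0.44 ± 0.088 in the first line and −0.48 ± 0.088 and −0.37 ± 0.087 in the second.

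The oligoadenylate synthetases make the short RNA messenger that activates RNase L, although not every protein of the family has this activity. Of the 6 genes, 4 fell at 24 h and 6 at 48 h with APC intact, and 2 and 3 in APC-deleted cells. Oasl2 had 210.4, 204.3 and 196.0 CPM in untreated APC-intact libraries, 154.9, 145.8 and 148.2 CPM at 24 h and 124.3, 108.7 and 122.2 CPM at 48 h. The groups were separate, and the level fell by 41.8% by 48 h (−0.78 ± 0.071, edgeR adjusted p = 3.73e-07). The APC-deleted libraries had 180.7, 209.9 and 220.2 CPM, then 161.3, 156.5 and 182.1 CPM, then 167.1, 160.0 and 158.6 CPM. One 24 h library reached into the untreated range there, and the 48 h change was −0.33 ± 0.070 (edgeR adjusted p = 0.00459).

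Oas3, whose promoter is shown above, had 137.5, 126.5 and 138.5 CPM, then 110.2, 101.1 and 106.7 CPM, then 86.1, 78.4 and 82.8 CPM in APC-intact cells. No 2 groups overlapped (−0.70 ± 0.065 at 48 h, edgeR adjusted p = 5.51e-07). In APC-deleted cells the values were 107.9, 123.9 and 126.0 CPM, then 100.5, 91.8 and 105.6 CPM, then 89.0, 93.3 and 86.7 CPM (−0.41 ± 0.065 at 48 h, edgeR adjusted p = 0.000405). Oas1a fell at 48 h in each line (−0.54 ± 0.064 and −0.27 ± 0.064). Oas1g, Oas2 and Oasl1 fell at 48 h in APC-intact cells by 31.9%, 32.4% and 22.6%. In APC-deleted cells their 48 h estimates were −0.10 ± 0.112, −0.12 ± 0.088 and −0.04 ± 0.068, none of which passed the test. Oas1a and Oas1g are close copies that can share reads.

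Of the 6 other direct antiviral effectors, 5 fell at each time in APC-intact cells and 2 at each time in APC-deleted cells. Those 2 were Cmpk2, a mitochondrial nucleotide kinase, and Bst2. Cmpk2 had 25.3, 28.8 and 26 CPM in untreated APC-intact libraries, 16.9, 16.1 and 16.6 CPM at 24 h and 14.1, 13.9 and 15.3 CPM at 48 h. The groups were separate (−0.89 ± 0.077 at 48 h, edgeR adjusted p = 1.99e-07). With APC deleted it had 21.9, 26.1 and 24.7 CPM, then 16.6, 15.7 and 17.1 CPM, then 15.7, 14.6 and 17.6 CPM, and the treated groups overlapped each other, both below the untreated one (−0.56 ± 0.076 and −0.60 ± 0.077).

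Bst2, the most abundant member per kilobase, had 333.7, 327.5 and 321.2 CPM, then 227.3, 270.8 and 225.4 CPM, then 203.8, 204.8 and 217.7 CPM in APC-intact cells. It had 330.2, 342.3 and 378.7 CPM, then 283.2, 245.2 and 284.7 CPM, then 257.2, 292.4 and 258.0 CPM in APC-deleted cells. Treated libraries lay below untreated ones in each line (−0.65 ± 0.076 and −0.38 ± 0.075 at 48 h, edgeR adjusted p = 8.27e-06 and 0.00264). Rsad2 (viperin), which makes a chain-terminating nucleotide, fell in APC-intact cells (−0.54 ± 0.108 and −0.46 ± 0.107) and stood at −0.24 ± 0.107 and −0.07 ± 0.107 in APC-deleted cells. Mx1 fell in APC-intact cells by 41.8% and 60.6% from a mean of 1.35 CPM ± 0.13 (SD, n = 3). In APC-deleted cells its estimates were −0.55 ± 0.196 and −0.25 ± 0.196 without passing the test.

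Mx2 belongs to the family of dynamin-like GTPases. It was the only member whose 48 h response differed between the lines by edgeR's test, as given below with that test. Its APC-intact libraries had 7.75, 8.75 and 7.94 CPM untreated, 5.89, 5.97 and 6.26 CPM at 24 h, and 5.56, 5.06 and 5.07 CPM at 48 h. It fell by 35.8% by 48 h (−0.64 ± 0.090, edgeR adjusted p = 7.95e-05). APC-deleted libraries had 4.76, 5.70 and 5.84 CPM untreated, 5.55, 5.01 and 5.76 CPM at 24 h, and 5.85, 6.59 and 6.23 CPM at 48 h. The 48 h libraries lay just above the untreated ones (0.20 ± 0.090, edgeR adjusted p = 0.176). Samd9l, which blocks translation in infected cells, passed in none of the comparisons with doxycycline. It had 63.5, 70.1 and 66.1 CPM, then 61.5, 52.1 and 70.9 CPM, then 59.4, 60.6 and 58.8 CPM in APC-intact cells. With APC deleted it had 47.4, 46.5 and 43.9 CPM, then 42.6, 44.0 and 44.3 CPM, then 43.8, 38.5 and 43.4 CPM, below every APC-intact library.

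**Figure D2:**
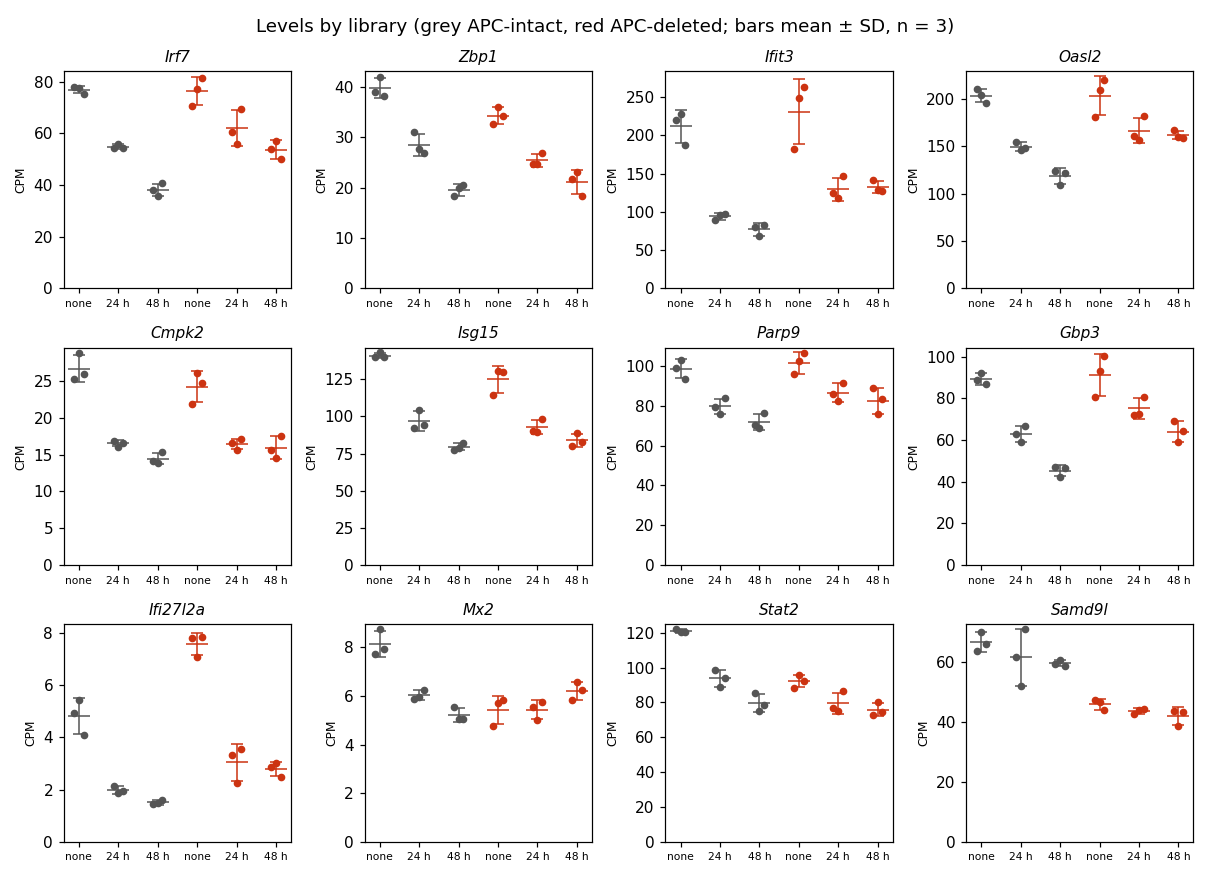
CPM of 12 members in every library (points), with the mean and SD of each group of 3, in APC-intact (grey) and APC-deleted cells (red) without doxycycline and after 24 h or 48 h; each axis starts at 0. Irf7, Zbp1 and Gbp3 step down at each time in APC-intact cells, Ifit3 has most of its fall by 24 h, Mx2 steps down in APC-intact cells and lies slightly higher at 48 h in APC-deleted cells, and Samd9l differs between the lines at every time.

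ISG15 is a ubiquitin-like protein joined to other proteins, and Usp18 removes it and also restrains the type I receptor. Both fell in all 4 comparisons. Isg15 had 139.9, 143.0 and 140.0 CPM in untreated APC-intact libraries, 91.9, 104.5 and 93.9 CPM at 24 h and 77.5, 78.9 and 82.2 CPM at 48 h. These groups were separate (−0.83 ± 0.062 at 48 h, edgeR adjusted p = 4.55e-08). Among APC-deleted libraries the values were 114.6, 130.8 and 129.7 CPM, then 90.3, 89.5 and 98.4 CPM, then 80.1, 88.8 and 82.7 CPM, also separate (−0.58 ± 0.062 at 48 h, edgeR adjusted p = 6.18e-06).

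For Usp18 the APC-intact values were 91.6, 99.2 and 85.4 CPM, then 67.1, 64.7 and 63.8 CPM, then 51.6, 50.2 and 56.5 CPM. The APC-deleted values were 85.8, 90.3 and 97.4 CPM, then 64.6, 62.0 and 72.5 CPM, then 65.1, 63.4 and 62.2 CPM. Treated libraries were below untreated ones in each line, by 42.7% and 30.3% at 48 h (−0.80 ± 0.067 and −0.52 ± 0.067, edgeR adjusted p = 1.49e-07 and 4.8e-05). Herc6, the mouse ligase that attaches ISG15, fell at 48 h in each line (−0.38 ± 0.073 and −0.35 ± 0.073). It had 42.1, 43.5 and 41.5 CPM, then 37.9, 34.9 and 38.5 CPM, then 33.2, 30.3 and 34.5 CPM in APC-intact cells. The APC-deleted values were 33.9, 36.7 and 36.4 CPM, then 31.2, 30.4 and 32.0 CPM, then 30.3, 23.9 and 29.7 CPM. Trim25, a ubiquitin ligase that assists RIG-I, was not called in any of the 4, with estimates from −0.23 to −0.04.

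Parp9 and Dtx3l encode partners that modify ubiquitin and histones, and Parp14 is another ADP-ribosyltransferase. Parp9 fell in all 4 comparisons, from 99.3, 103.3 and 93.8 CPM to 79.4, 76.0 and 83.9 CPM and then 70.5, 69.1 and 76.7 CPM in APC-intact cells. The change at 48 h was −0.45 ± 0.065 (edgeR adjusted p = 0.000102). In APC-deleted cells it had 95.9, 102.8 and 106.9 CPM, then 85.9, 82.5 and 91.7 CPM, then 88.9, 75.9 and 83.4 CPM, again below the untreated libraries (−0.30 ± 0.065). Dtx3l had 79.4, 72 and 75.1 CPM, then 65.5, 58.8 and 69.2 CPM, then 65.5, 57.7 and 62.9 CPM in APC-intact cells and passed at 48 h (−0.28 ± 0.077, edgeR adjusted p = 0.0219). In APC-deleted cells its values, 75.4, 85.5 and 85.4 CPM, then 75.7, 72 and 82.0 CPM, then 84.2, 70.1 and 79.1 CPM, overlapped. Parp14 was the member nearest to no change at 24 h in APC-intact cells (0.03 ± 0.106) and was not called at any time. Parp9 and Dtx3l lie on opposite strands, and their spans share 682 bases, introns included. Parp9 also overlaps the annotated gene Gm15564 on the opposite strand by 5854 bases. Gm15564 had a mean of 26 CPM against 87.0 CPM for Parp9, with log2 changes of 0.05 and 0.75 at 24 h and 48 h in APC-intact cells and −0.20 and 0.34 in APC-deleted cells. The use of strand is not given and shared exon sequence was not measured, so how reads in these overlaps were assigned is not known. The part of Gm15564 in the Parp9 values was not tested.

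The interferon-inducible GTPases include proteins that attack the membranes of vacuoles that hold parasites and bacteria. Of 7 genes, 6 fell at 24 h and 7 at 48 h with APC intact, and 6 at each time in APC-deleted cells. Gbp3 had 88.9, 92.2 and 86.8 CPM in untreated APC-intact libraries, 62.9, 59.1 and 66.6 CPM at 24 h and 47.3, 42.2 and 46.5 CPM at 48 h. It fell by 49.2% with no overlap (−0.98 ± 0.077 at 48 h, edgeR adjusted p = 8.47e-08). With APC deleted, Gbp3 had 80.6, 93.3 and 100.4 CPM, then 72.1, 72.6 and 80.9 CPM, then 69, 59.0 and 64.3 CPM. One 24 h library was above the lowest untreated one, and the 48 h change was −0.51 ± 0.077 (edgeR adjusted p = 0.000229).

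Gbp2 followed closely, with 77.6, 81.4 and 71.1 CPM, then 52.4, 52.1 and 54.1 CPM, then 39.1, 36.3 and 42.5 CPM in APC-intact cells, and 75.1, 86.7 and 90.9 CPM, then 65.9, 65.2 and 72.9 CPM, then 64.3, 52.1 and 56.2 CPM in APC-deleted cells. All of its groups within a line were separate (−0.96 ± 0.082 and −0.55 ± 0.082 at 48 h). Iigp1 had 24.1, 25.2 and 23.0 CPM, then 14.3, 13.6 and 16.1 CPM, then 11.7, 11.4 and 13.7 CPM in APC-intact cells. With APC deleted it was lower from the start, at 16.8, 17.3 and 16.9 CPM, then 11.4, 12.3 and 11.5 CPM, then 11.9, 7.83 and 10.2 CPM. It fell in both (−0.98 ± 0.106 and −0.77 ± 0.107 at 48 h). Ifi47 had 36.5, 36.6 and 34.3 CPM, then 28.5, 26.7 and 27.8 CPM, then 24.5, 27.4 and 27.0 CPM in APC-intact cells, and 37.1, 42.4 and 42.1 CPM, then 31.8, 29.8 and 32.7 CPM, then 33.8, 30.4 and 30.3 CPM in APC-deleted cells. In APC-deleted cells Ifi47, Igtp and Irgm1 stood at −0.37 at 24 h and between −0.36 and −0.39 at 48 h. The span of Ifi47 overlaps that of Olfr56 on the same strand by 20388 bases. Olfr56 had a mean of 0.282 CPM against 32.2 CPM for Ifi47. The spans of Igtp and Irgm2, introns included, share 7974 bases on the same strand. Irgm2 fell as well (−0.56 to −0.74 in APC-intact and −0.53 to −0.59 in APC-deleted cells). Shared exon sequence was not measured, so how far their reads could be mixed was not tested.

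Of the 6 remaining members, 6 fell at each time in APC-intact cells and 5 in APC-deleted cells. Ifi27l2a, a small mitochondrial protein gene, had the largest fall of all members in every comparison with untreated cells. It had 4.94, 5.41 and 4.08 CPM in untreated APC-intact libraries, 2.15, 1.88 and 1.93 CPM at 24 h and 1.44, 1.48 and 1.59 CPM at 48 h. The level fell by 68.7% without overlap (−1.67 ± 0.151, edgeR adjusted p = 3.56e-07). APC-deleted libraries began higher, at 7.79, 7.07 and 7.82 CPM, and had 3.33, 2.23 and 3.55 CPM at 24 h and 2.87, 3.01 and 2.49 CPM at 48 h (−1.44 ± 0.145, edgeR adjusted p = 2.99e-06).

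Lgals3bp, a secreted glycoprotein, changed with little spread among libraries. Its values were 332.4, 329.4 and 319.7 CPM, then 292.9, 275.8 and 273.1 CPM, then 230.4, 229.3 and 230.9 CPM in APC-intact cells. With APC deleted, they were 315.0, 317.7 and 316.2 CPM, then 251.8, 272.6 and 277.3 CPM, then 235.9, 256.3 and 228.3 CPM. Treated and untreated libraries were apart in each line (−0.51 ± 0.050 and −0.40 ± 0.050 at 48 h, edgeR adjusted p = 1.01e-06 and 3.78e-05). Ifi35 and Xaf1 fell in all 4 comparisons, by between 17.4% and 36.6%. Ifi44 passed in 3 of them (−0.42, −0.71 and −0.41) and Rtp4 in 3 (−0.31, −0.50 and −0.33).

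**Figure D3:**
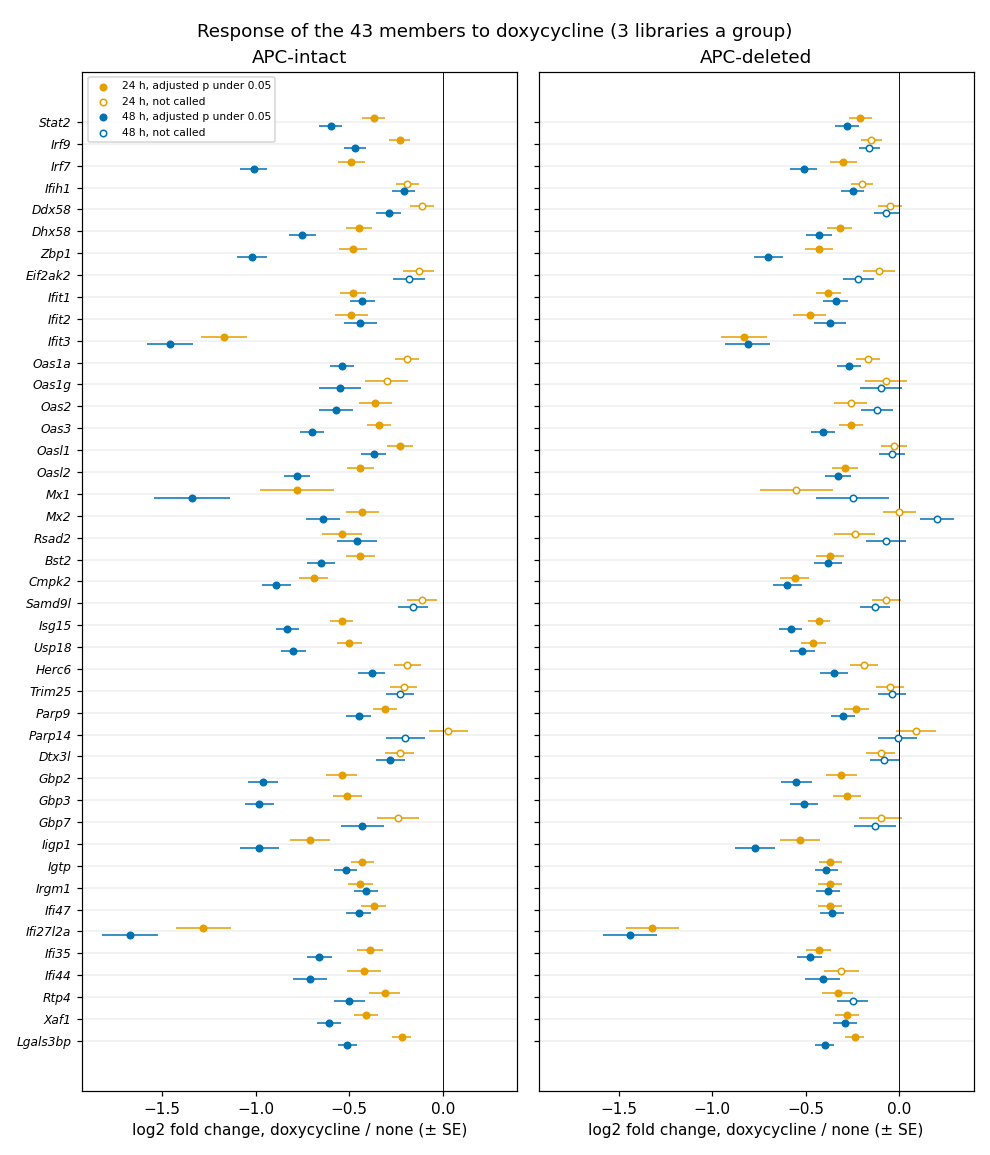
Log2 fold change of each of the 43 members against untreated cells of the same line (horizontal axis, ± SE, 3 libraries a group) at 24 h (orange) and 48 h (blue), filled where edgeR's adjusted p was under 0.05. Filled points all lie below 0, the 48 h points of APC-intact cells lie farthest left, and the open points include Parp14, Eif2ak2, Trim25 and Samd9l in both panels.

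Calls held unevenly against single libraries. In APC-intact cells 26 of the 32 calls at 24 h and 36 of the 39 at 48 h stayed under every alternative. In APC-deleted cells 19 of 28 did at 48 h and 13 of 25 at 24 h. That last count was 14 without APC-deleted 24 h replicate 2, 15 without APC-deleted untreated replicate 3 and 16 without untreated replicate 2. The direction did not turn for any call in any alternative run.

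Members with the ISRE core in the promoter window and those without it had similar medians. With it (17 genes) the medians were −0.43 and −0.54 at 24 h and 48 h in APC-intact cells, and −0.26 and −0.34 in APC-deleted cells. Without it (15 genes) they were −0.37 and −0.47, and −0.28 and −0.35. Ranges overlapped almost entirely, for example from −1.46 to −0.18 and from −1.01 to −0.16 at 48 h in APC-intact cells. A core outside these windows would not be seen.

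From 24 h to 48 h a minority of the members fell in APC-intact cells. Of the 43, 10 were lower at 48 h than at 24 h and 0 higher, where 0.646% of all genes were lower and 0.0933% higher. The median was −0.21 with 39 of 43 below 0, and 48.3% of all genes below 0. All 48 h libraries lay below all 24 h ones for 24 members (7.5% of all genes) and above for 0 (7.54%). By DESeq2 14 were lower and 0 higher, and at an unadjusted p under 0.05 the counts were 30 and 0. The 10 were Irf7, Zbp1, Oas1a, Oas3, Oasl2, Isg15, Usp18, Gbp2, Gbp3 and Lgals3bp, led by Zbp1 (−0.54 ± 0.078, edgeR adjusted p = 0.000676) and Irf7 (−0.52 ± 0.073, edgeR adjusted p = 0.000472). Of these Irf7, Zbp1, Oas3 and Gbp3 were called under every alternative, and the count was 6 without APC-intact 48 h replicate 2. It was 5 where the fit held no other groups. The 2 groups carry different file designations, so time and designation cannot be told apart.

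In APC-deleted cells, where 24 h and 48 h share a designation, 0 of 43 members were lower and 0 higher at 48 h than at 24 h by edgeR and by DESeq2. Among all genes 0.446% were lower and 0.0733% higher. All 48 h libraries lay below all 24 h ones for 5 members (7.22% of all genes) and above for 1, Mx2 (5.59%). The median was −0.05, and 9 were lower and 1 higher at an unadjusted p under 0.05. Without APC-deleted 48 h replicate 2, 2 members were lower. The 2 steps differ in designation, and the difference between them was not tested.

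Between the untreated lines the members had no common direction. Of 43, 8 were lower in APC-deleted cells and 3 higher, where 13.8% and 13.4% of all genes were, and the median was 0.00. The lines did not overlap for 12 members that were lower (24.8% of all genes) and 5 that were higher (24.5%). Mx2 (−0.58 ± 0.089), Samd9l (−0.53 ± 0.079), Iigp1 (−0.51 ± 0.105) and Stat2 (−0.39 ± 0.061) were lower, with edgeR adjusted p of at most 0.0011. Herc6, Zbp1, Ifit1 and Isg15 were lower by 15.9%, 13.8%, 12% and 11.3%. Ifi27l2a (0.65 ± 0.140, edgeR adjusted p = 0.0015), Ifit2 (0.37 ± 0.087, edgeR adjusted p = 0.00378) and Ifi47 (0.18 ± 0.064, edgeR adjusted p = 0.045) were higher. Without APC-deleted untreated replicate 1 the counts were 4 lower and 7 higher, and without APC-intact untreated replicate 1, 5 were lower.

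At 48 h, with the lines again in 1 designation, most members were higher in APC-deleted cells. Of 43, 27 were higher and 3 lower, where 17.8% and 16.8% of all genes were, and the median was 0.27 against 0 for all genes. All 3 APC-deleted libraries lay above all 3 APC-intact ones for 28 members (22.4% of all genes) and below for 2 (22.2%). Ifi27l2a (0.89 ± 0.153), Mx1 (0.86 ± 0.205), Ifit3 (0.78 ± 0.122), Oas1g (0.65 ± 0.115) and Oas2 (0.62 ± 0.089) led the higher ones, and 4 of the 6 OAS genes were among them. Samd9l (−0.51 ± 0.079, edgeR adjusted p = 5.04e-05), Iigp1 (−0.30 ± 0.108, edgeR adjusted p = 0.0371) and Herc6 (−0.22 ± 0.073, edgeR adjusted p = 0.0229) were lower. The lower count was 1 without APC-deleted 48 h replicate 2 and 1 without APC-intact 48 h replicate 3.

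At 24 h 14 members were higher and 4 lower in APC-deleted cells, where 16% and 15.1% of all genes were, and the median was 0.10. The lines did not overlap for 17 higher members (21.6% of all genes) and 6 lower ones (20.4%). The 4 lower ones were Samd9l, Iigp1, Herc6 and Stat2 (−0.24 ± 0.061, edgeR adjusted p = 0.00501). The higher count was 5 without APC-deleted 24 h replicate 3 and 8 without APC-intact 24 h replicate 2. At this time the lines carry different designations and cannot be told apart from them.

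**Figure D4:**
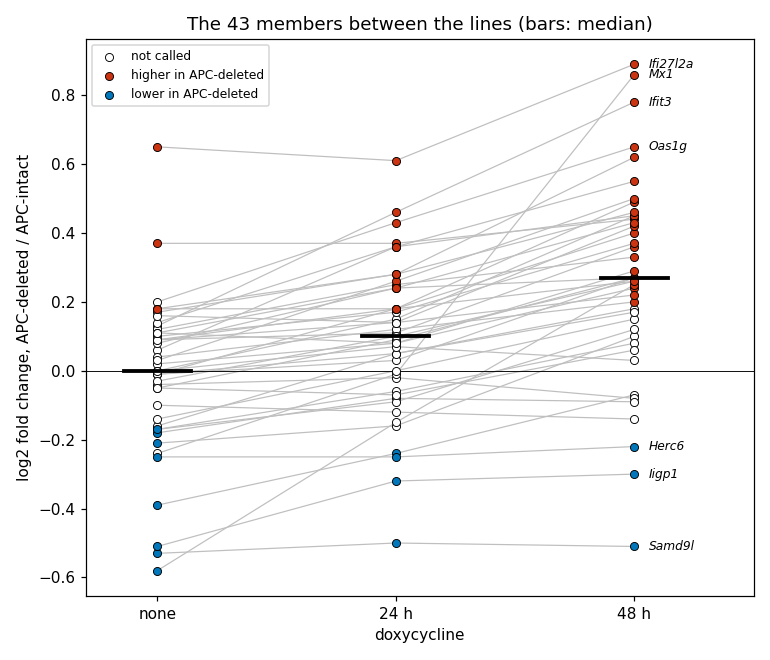
Log2 fold change of APC-deleted over APC-intact cells for each member (points joined by lines) without doxycycline and at 24 h and 48 h, filled where edgeR's adjusted p was under 0.05, with the median as a bar. The median goes from 0.00 to 0.10 and 0.27, while Samd9l stays near −0.5 at all 3 times.

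The test of the difference itself asked whether doxycycline moved a gene by another amount in the 2 lines. At 48 h, where the designation cancels, the estimate was above 0 for 41 of 43 members, meaning a smaller fall or a rise in APC-deleted cells, against 51.2% of all genes. The median was 0.27. Only Mx2 passed in edgeR (0.83 ± 0.127, adjusted p = 0.0361), where 0.02% of all genes passed in that direction and 0.00666% in the other. By DESeq2 6 members passed, and 25 were above 0 at an unadjusted p under 0.05. The largest estimate was that of Mx1 (1.10 ± 0.281, edgeR adjusted p = 0.265), followed by Mx2, Ifit3 (0.65 ± 0.171, edgeR adjusted p = 0.327) and Irf7 (0.50 ± 0.102, edgeR adjusted p = 0.131). The 41 estimates share the same 12 libraries and are not independent. The call of Mx2 was lost under 11 alternatives, where its adjusted p was at most 0.25. In 8 of them a single library was left out: untreated replicate 1 or 2 of either line, APC-intact 48 h replicate 2 or 3, or APC-deleted 48 h replicate 1 or 3.

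At 24 h 37 of 43 estimates of the difference were above 0 (52.6% of all genes), with a median of 0.10 and 0 members past the threshold by edgeR or DESeq2. For all genes 0.00666% were lower and 0% higher. At an unadjusted p under 0.05, 2 members were higher. The designation does not cancel at 24 h. The fall of the median member was 24.6% in APC-intact and 17.8% in APC-deleted cells at 24 h, and 31.9% and 20.9% at 48 h. The lines share no library, and over the 43 genes their log2 fold changes correlated with Pearson's r = 0.91 (Spearman's rho = 0.82) at 24 h and r = 0.77 (rho = 0.73) at 48 h. Genes are not independent replicates, and the untreated and treated libraries of each gene share depth and length.

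The genes upstream of the members were read from lists of the pathway. Of 11 interferon genes, 10 had at most 6 counts in any library. Ifnb1, the interferon first made after sensing, had 1 to 17 counts a library and passed in no comparison, with a 48 h estimate of −0.47 ± 0.740 in APC-intact and 0.59 ± 0.795 in APC-deleted cells. With so few counts, whether Ifnb1 changed could not be read.

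Of 6 receptor chains, 5 were tested. None was lower with doxycycline in any of the 4 comparisons by edgeR, and 1 was at an unadjusted p under 0.05, at 48 h in APC-intact cells. Ifnar1 stood at 77.3 CPM ± 2.29 (SD, n = 3) in untreated APC-intact cells and 77.6 ± 0.765 at 48 h (0.01 ± 0.049). Ifngr1, a chain of the interferon gamma receptor, was higher in APC-deleted cells at 24 h (0.29 ± 0.056) and 48 h (0.38 ± 0.056), and Ifngr2 at 24 h (0.17 ± 0.050, edgeR adjusted p = 0.0427). That call of Ifngr2 was lost under 7 of 14 alternatives, with no filter and without any 1 of the 6 libraries compared. Between the untreated lines 4 of the 5 were already higher in APC-deleted cells, where 13.4% of all genes were. The 5 estimates ran from 0.13 to 0.29. At 24 h, where the lines carry different designations, and at 48 h all 5 were higher, by 0.23 to 0.54. Among all genes 16% and 17.8% were higher at those times. The 5 estimates share the same libraries and are not independent. The test of the difference in response between lines was past the threshold for 0 of the 5 by edgeR at either time, and for 1, Ifngr1, at an unadjusted p under 0.05 at each. The 48 h difference of Ifngr1 was 0.34 ± 0.080 (edgeR adjusted p = 0.205, from 0.0192 to 0.707 over the alternatives).

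Among the kinases and signal carriers, Irf1, a target and activator within the response, fell in APC-intact cells (−0.32 ± 0.062 and −0.39 ± 0.062) and stood at −0.19 ± 0.061 and 0.00 ± 0.061 in APC-deleted ones, a difference that did not pass the test (0.39 ± 0.087 at 48 h). Irf5 fell at 48 h in APC-intact cells (−0.35 ± 0.069), and Irf8 was higher there at 24 h (0.31 ± 0.087, edgeR adjusted p = 0.0416), although its groups overlapped. That call of Irf8 was lost under 9 of 14 alternatives, among them the replicate block, no filter, and leaving out APC-intact 24 h replicate 1 or 2 or any 1 untreated APC-intact library. Jak1, Jak2, Tyk2, Stat3, Irf2 and Irf3 passed in none of the 4.

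Of 8 inhibitors, Socs3 fell at both times in APC-intact cells (−0.26 ± 0.057 and −0.32 ± 0.057) and Socs1 at 48 h in APC-deleted cells (−0.32 ± 0.100, edgeR adjusted p = 0.0419). The call of Socs1 was lost under 6 of 14 alternatives, 5 of which left out APC-deleted 48 h replicate 1 or 3 or any 1 untreated APC-deleted library. The 24 h call of Socs3 was lost under 4, without APC-intact 24 h replicate 1 or 3, without untreated replicate 1, or with only the groups compared. Of 16 tested genes of upstream sensing, 0 and 4 were lower at 24 h and 48 h in APC-intact cells (4.25% and 7.54% of all genes). In APC-deleted cells 1 and 6 were lower (3.77% and 6.49% of all genes). None was higher in either line by edgeR. At an unadjusted p under 0.05, 7 were lower at 24 h in APC-intact cells, and 1 was higher at 24 h in APC-deleted cells. Ikbke, a kinase that activates IRF3, fell at 48 h in each line (−0.54 ± 0.097 and −0.39 ± 0.097), as did the RNA editor Adar (−0.23 ± 0.051 and −0.18 ± 0.051) and the adaptor Ticam1 (−0.27 ± 0.076 and −0.37 ± 0.077). In APC-deleted cells the call of Adar was lost under 5 of 14 alternatives, including without 48 h replicate 1 or any 1 untreated library, and that of Ikbke under 2, including without untreated replicate 1. In APC-intact cells the call of Ticam1 was lost under 5, without any 1 of the 48 h libraries or without untreated replicate 1 or 2. Tmem173 (STING), Mb21d1 (cGAS), Mavs and Tbk1 passed in none of the 4.

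A further 48 tested genes known to be induced by interferon were read in the same way. In APC-intact cells 22 and 34 were lower at 24 h and 48 h and none was higher, where 4.25% and 7.54% of all genes were lower, and the medians were −0.25 and −0.40. In APC-deleted cells 14 and 25 were lower, where 3.77% and 6.49% of all genes were, and the medians were −0.18 and −0.22, and Aim2 was higher at 48 h (0.22 ± 0.051, edgeR adjusted p = 0.00734). At an unadjusted p under 0.05, 1 was higher at 24 h in each line. Slfn2 (−0.84 ± 0.064 and −0.57 ± 0.064 at 48 h), Sp100 (−0.59 ± 0.058 and −0.42 ± 0.058), Ube2l6, the conjugating enzyme of ISG15 (−0.51 ± 0.057 and −0.48 ± 0.057), and the galectin gene Lgals9 (−0.50 ± 0.053 and −0.38 ± 0.052) fell at both times in both lines. Nlrc5, the activator of MHC class I genes, passed in none (0.15 ± 0.088 and −0.02 ± 0.089 at 48 h).

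**Figure D5:**
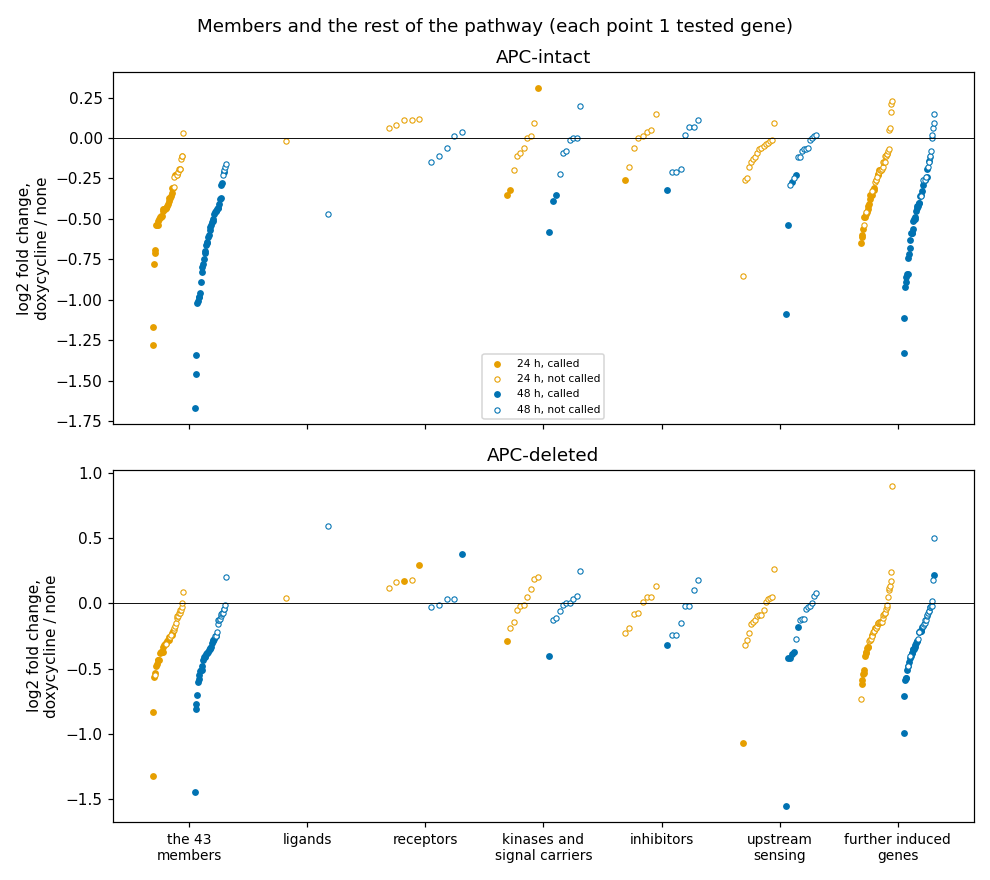
Log2 fold change against untreated cells of the same line (vertical axis) of every tested gene, 1 point each, in the 43 members and in 6 lists of other genes of the pathway, at 24 h (orange) and 48 h (blue), filled where edgeR's adjusted p was under 0.05; the 2 panels have their own vertical scales. The members and the further induced genes lie mostly below 0 in both lines, and most kinases lie near 0. The 5 receptors lie between −0.15 and 0.12 with APC intact. Ifngr1 is filled above 0 at both times with APC deleted (0.29 and 0.38), as is Ifngr2 at 24 h (0.17).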

How the data were processed

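RNA of 18 cultured mouse libraries was sequenced. The authors deposited 1 table of raw counts per gene and library, made with STAR and HTSeq on mm10, per the submitters' processing notes. Versions, annotation release and use of strand are not given in the sources used here. Rows that name no gene (22.87% to 25.52% of all counts in a library) entered neither library sizes nor tests. Deposited RPKM values were not used: CPM were computed from the counts and TMM factors, and CPM per kilobase from the exon length in the files.

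Genes were kept by filterByExpr with the 6 groups, and 15006 were tested in 1 edgeR quasi-likelihood fit over all libraries (edgeR 4.0.16, limma 3.58.1, R 4.3.3), with 1 coefficient per group, 11 contrasts and Benjamini-Hochberg adjustment at 0.05. The common biological coefficient of variation was 8.33%. The standard error is that of the log2 fold change. Alternatives were DESeq2 1.42.0, RLE and upper-quartile factors, no filter, a filter of 1 CPM in 3 libraries, only the groups compared, a replicate block, each library left out, and both libraries that stood apart left out. On simulated counts with 200 changed genes (14655 genes, APC-intact 24 h against untreated), 81% of 100 genes at 1.5-fold and 89% of 100 at 2-fold were recovered, with 3 false calls. Every simulated gene had the same biological spread, and recovery of changes under 1.5-fold, the size of most members' changes, was not simulated. Motifs were searched on both strands of the RefSeq promoter table.

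Every member could be named. Values per library are given for the 2 members of each role with the smallest adjusted p against untreated cells, for members called against the direction of most in a comparison, and for those whose response differed between lines. Genes outside the list were named from fixed pathway lists, and 1 gene of these is not reported here. The members and lists were chosen with earlier results of these data known. Python 3.11.15 with pandas 2.3.3 and matplotlib 3.10.9 made the summaries and plots.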

Additional observations from a re-analysis of the deposited data

Results flagged for a closer look

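The 48 h response of Mx2 differed between the lines by a test of the difference itself. The log2 fold change was −0.64 in APC-intact cells and 0.20 in APC-deleted cells, a difference of 0.83 ± 0.127 (edgeR adjusted p = 0.0361, 3 libraries a group). All 3 APC-intact 48 h libraries lay below their untreated libraries, and all 3 APC-deleted ones lay just above theirs. The rise within APC-deleted cells did not itself pass the test. The estimate ranged from 0.74 to 0.89 over the alternatives, and the adjusted p from 4.41e-06 with DESeq2 to 0.25 without APC-intact 48 h replicate 2. Untreated Mx2 was already lower in APC-deleted cells (−0.58).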

How the results depend on the processing

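Of 194 calls of members over the comparisons, none turned direction in any alternative. DESeq2 lost 0 of them, RLE factors 1, the 1 CPM filter 1, no filter 6, upper-quartile factors 6, leaving out both libraries that stood apart 8, and only the groups compared 32. Replicate numbers did not pair the libraries (correlations of same-numbered deviations from −0.088 to 0.116, 12 of 27 best with their own number), and the replicate block lost 2 of the 194 calls.

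With 1 library left out at a time, members lower against untreated numbered 26 to 30 and 36 to 39 in APC-intact cells at 24 h and 48 h, and 14 to 26 and 27 to 31 in APC-deleted cells. From 24 h to 48 h they numbered 6 to 12 in APC-intact and 0 to 2 in APC-deleted cells. Between lines, lower and higher members numbered 4 to 7 and 2 to 7 untreated, 3 to 4 and 5 to 17 at 24 h, and 1 to 4 and 25 to 29 at 48 h. The 48 h response differed for 0 to 1.

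With both libraries that stood apart left out, 2 members were lower from 24 h to 48 h in APC-deleted cells, 1 was lower between lines at 48 h, and 0 differed in 48 h response. With only the groups compared, 5 were lower from 24 h to 48 h in APC-intact cells, 5 were higher between untreated lines, 1 was lower between lines at 48 h, and 0 differed in 48 h response. With no filter, 5 were lower between untreated lines and 3 differed in 48 h response. That last count was 6 with DESeq2 and 0 with upper-quartile factors. The cause of these shifts was not tested.

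Calls over all genes against untreated cells, at 24 h and 48 h, went from 846 to between 258 and 1259, and from 1703 to between 822 and 4367, in APC-intact cells. With APC deleted these went from 878 to between 428 and 2473, and from 1653 to between 433 and 3009. From 24 h to 48 h they went from 111 to between 49 and 442 in APC-intact and from 78 to between 22 and 221 in APC-deleted cells. For the difference in response they went from 1 to at most 5 at 24 h and from 4 to between 0 and 58 at 48 h. Between lines they went from 4090 to between 3101 and 5661 untreated, from 4675 to between 3608 and 5033 at 24 h, and from 5203 to between 3848 and 5560 at 48 h. Members near 1 CPM, such as Mx1, had the widest errors.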

Other observations

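Neighbouring members did not always move by the same amount. On chromosome 12 (mm10), Cmpk2 (26469204 to 26479835) and Rsad2 (26442753 to 26456452) lie side by side. Cmpk2 fell at 48 h in APC-deleted cells (−0.60 ± 0.077), where Rsad2 stood at −0.07 ± 0.107. On chromosome 3, Gbp7 (142530338 to 142550083) lies next to Gbp3 (142560052 to 142573209), with 48 h values in APC-intact cells of −0.43 and −0.98. On chromosome 5, Oas2 (120730333 to 120749853) and Oas3 (120753098 to 120777661) stood at −0.12 and −0.41 at 48 h in APC-deleted cells, and only the second passed the test. The differences between neighbours were not tested.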
